A study of Mus musculus with 8 samples.

Results

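Transcript levels of common myeloid progenitors (CMP) were compared between mice lacking IRF-8 and wild-type mice. The comparison rests on 4 of the 8 arrays of the series, chosen by the cell type and genotype of their labels: 2 of CMP with the genotype IRF-8 knockout and 2 of CMP with the genotype IRF-8 wild type. All were from bone marrow of the mouse strain C57BL/6, and the CMP were sorted as cells without lineage markers that were high for c-kit, positive for CD34 and Flk2, and negative for Sca-1, CD11c, CD16/32 and CD115. The other 4 arrays, of all lymphoid progenitors (ALP) in both genotypes, entered the same model and a single comparison below. The design text names wild-type mice alone, so the genotype was taken from the label of each sample. The sources used here do not give the knockout allele, the age of the animals or whether an array holds 1 animal or several. The p-values therefore measure no more than the spread between these samples, which may be technical.

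IRF-8 belongs to the interferon regulatory factors, a family of transcription factors, and is made in progenitors and in cells of the monocyte and dendritic lineages. It binds DNA weakly alone and pairs with partners such as PU.1 (encoded by Spi1) and BATF3 at composite sites. Mice without it are known for a lack of certain dendritic cells and monocytes and for an excess of granulocytes, and the series, by its title, is about how it acts on neutrophil and dendritic cell fates.

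Levels are given on the log2 scale of the deposited gene table, and a change is the knockout mean minus the wild-type mean of 2 arrays each, which limits the precision of every estimate. A gene was tested where its probe was detected (detection p under 0.05) on at least 2 of the 4 CMP arrays, which kept 8350 of 18132 genes, and it was called where limma's adjusted p was under 0.05. The share of probes detected was 45.0% to 48.2% on the CMP arrays. Arrays of the same group correlated across genes at 0.934 in wild-type CMP and 0.918 in knockout CMP. The median SD of a gene over the 2 arrays was 0.252 in wild-type and 0.304 in knockout CMP, against 0.451 in wild-type ALP. Wild-type CMP array 2 stood apart for 1 set of genes: 21 of 36 erythroid genes were detected on it, against 11 on wild-type array 1 and 12 and 16 on the knockout arrays, and results that this touches are given with and without it. Itgam, which encodes the myeloid integrin chain CD11b, was not detected on any CMP array. Csf1r, which encodes the CD115 of the sort, had transcript on all 4 arrays, with levels of 6.74 and 6.75 in the wild type and 5.67 and 6.23 in the knockout. Flt3, which encodes Flk2, lay between 9.63 and 10.34 on all 4 arrays, and Cd34 between 7.74 and 8.57. The Y-linked Ddx3y and Uty were detected on all 4 arrays and Xist on none, so the sex shown by these genes did not differ between the groups.

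The probe of Irf8 itself read 11.04 and 10.94 on the wild-type arrays and 10.80 and 10.79 on the knockout arrays, a difference of -0.19 (SE 0.27, adjusted p = 0.981). Whether it lies inside or outside the disrupted sequence is unknown, so this probe is no check of genotype or labels. Of the 20 tested genes that neighbour Irf8 on its chromosome, 0 passed the threshold by limma. Among them 2 had an unadjusted p under 0.05, beside 6.86% of all genes tested. Changes of the 20 ran from -1.24 to 0.90.

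A few genes fell in CMP without IRF-8, most of them to levels at or below detection. In all 9 genes fell (0.108% of the 8350 tested) and 0 rose by limma (percent called 0), while 294 lower and 279 higher genes had an unadjusted p under 0.05 (3.52% and 3.34%, and 6.86% for both together). The 9 were H2-Aa, Cd74, Ctsh, P2ry6, Ly86, Id2, Lgals3, Aif1 and Batf3. They belong to presentation on MHC class II, to dendritic cell regulation, to monocytes and macrophages, and to nucleotide sensing. Cd74 on knockout array 1 and a probe of Id2 on knockout array 2 were still detected, and the other 7 genes were detected on 0 knockout arrays. In each of the 9 both knockout arrays lay below both wild-type arrays, as they did in 20.1% of the genes tested. The 9 were called on the same arrays, so this separation adds no support to the calls. In bulk RNA of sorted cells, fewer cells that express a gene and less of its RNA per cell cannot be told apart.

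**Figure D1:**
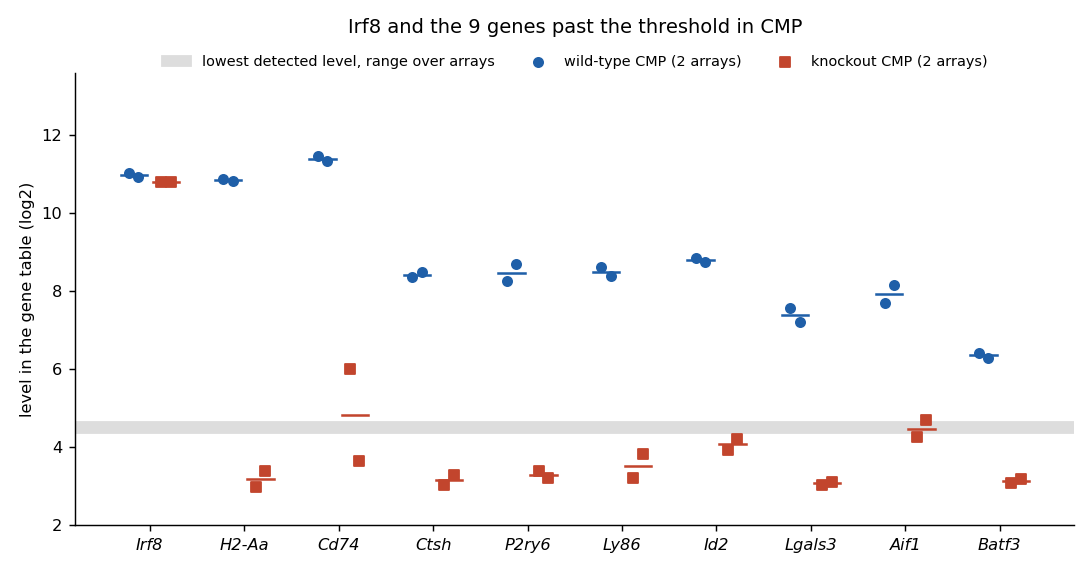
Level in the gene table (log2) of Irf8 and of the 9 genes past the threshold on each CMP array, with circles for the wild type, squares for the knockout, short lines for group means and a grey band for the range over these arrays of the lowest level of a detected probe. The wild-type arrays of the 9 genes lie above the band at 6.29 to 11.46, and the knockout arrays lie in or below it except Cd74 on array 1 (6.00) and Aif1 on array 2, which is at 4.69.

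**Figure D2:**
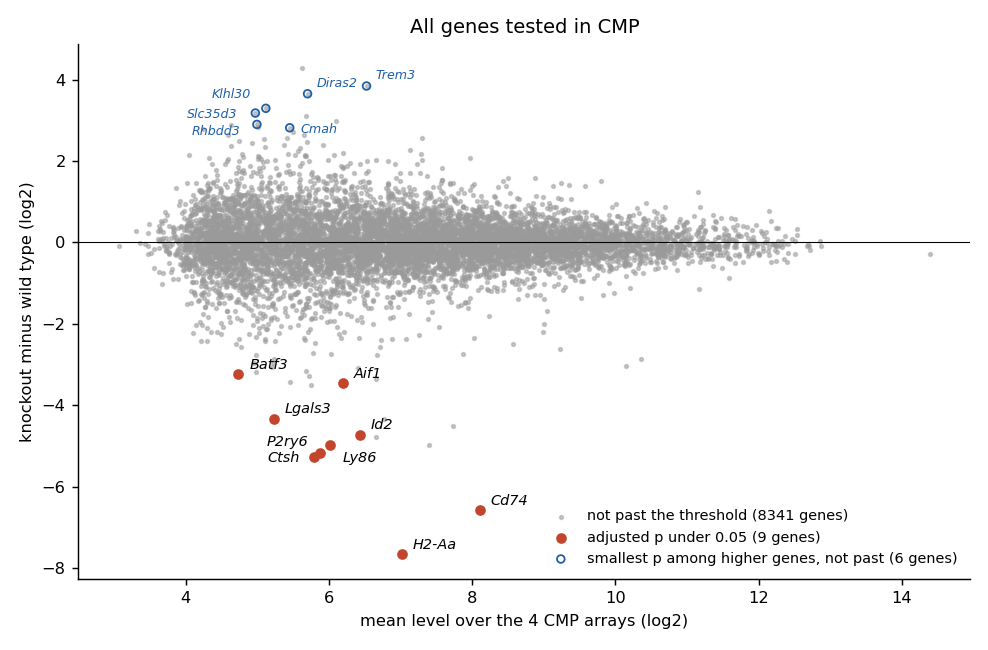
Change (knockout minus wild type, log2) against the mean level over the 4 CMP arrays (log2) for the 8350 genes tested, with the 9 called genes in red and, as open circles, the 6 genes with the smallest p among those higher in the knockout. The scatter is widest at low levels. The called genes have changes from -7.67 to -3.23, a range that also holds genes not past the threshold, such as Ckb (-4.98) and H2-Eb1 (-4.79).

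MHC class II molecules display peptides from the endosomal pathway to CD4 T cells and are made by dendritic cells, macrophages and B cells. Their genes are switched on together by the coactivator CIITA, which docks on the RFX complex and NF-Y, and NF-Y binds the Y box in their promoters. H2-Aa, the alpha chain of the I-A molecule, had the largest change of all genes tested. Its level was 10.87 and 10.83 on the wild-type arrays and 2.98 and 3.38 on the knockout arrays, where it was not detected. It fell at least 86.9-fold (log2 change -7.67, SE 0.51, adjusted p = 0.00413), where the fold is taken against the lowest level of a detected probe on the knockout arrays. Cd74, the invariant chain that guards the binding groove and guides class II molecules to endosomes, read 11.46 and 11.33 in the wild type. Its knockout levels were 6.00, detected, on array 1 and 3.63, not detected, on array 2, so the knockout arrays disagreed with each other but lay below both wild-type arrays. Its change was a fall of 6.58 in log2 units (SE 0.71, adjusted p = 0.0457). Without knockout array 1 it was -7.76 (adjusted p = 0.0222), and without knockout array 2 it was -5.40 and did not pass (adjusted p = 0.0599); in both fits the single knockout array is assumed to vary like the arrays of the other groups. A second probe of Cd74 gave -5.30 in the background-corrected scanner values, against -5.96 for the first.

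The partner chain of H2-Aa, H2-Ab1, stayed measurable. It read 11.69 and 11.63 in wild-type and 8.75 and 8.50 in knockout CMP, with a change of -3.04 that did not pass (SE 0.44, adjusted p = 0.0784). H2-Eb1, the beta chain of I-E, read 9.19 and 8.92 against 3.73 and 4.80, a change of -4.79 (SE 0.66, adjusted p = 0.0664). H2-Ea, its alpha chain, which haplotype b mice such as C57BL/6 are known not to express, was not detected on any CMP array (at most 3.54). The wild-type and knockout arrays did not overlap for either beta chain, and H2-Ab1 and H2-Eb1 passed under 8 and 7 of the 19 other settings of the analysis.

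The genes that load and trim class II cargo ran from a loss below detection to no measurable difference. Ctsh, the lysosomal protease cathepsin H, read 8.37 and 8.48 in the wild type and 3.03 and 3.29 in the knockout. It fell at least 16.2-fold (log2 change -5.26, SE 0.34, adjusted p = 0.00413) and was not detected in the knockout. H2-DMb2, a chain of the peptide exchange factor H2-DM, read 7.79 and 6.74 against 4.26 and 3.94 and did not pass (-3.17, adjusted p = 0.308). Ifi30, the thiol reductase GILT, had a value of -2.42 (adjusted p = 0.0779), Marchf1, a ubiquitin ligase for class II, -1.95 (adjusted p = 0.0748), H2-DMb1 -1.88 (adjusted p = 0.571) and Ctss, the protease cathepsin S that trims the invariant chain, -1.46 (adjusted p = 0.488). The arrays of the genotypes did not overlap for any of these. Probes disagreed for 2 of them in the background-corrected scanner values, with -2.27 and -0.88 for Ifi30 and -2.09 and -0.27 for Marchf1. H2-DMa, the other chain of H2-DM, read 10.89 and 10.76 against 10.41 and 10.25 (-0.50, SE 0.33, adjusted p = 0.897), and H2-Oa and H2-Ob, the chains of the H2-DM inhibitor H2-O, had values of -0.25 and -0.13 with overlapping arrays.

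Of the 21 class II presentation genes on the table, 15 could be tested, 5 of them only because they were detected in 1 of the genotypes. Of the 15, 3 fell and 0 rose, beside 0.108% and 0% of all genes tested. The median change over all 21 was -0.76, with 17 below 0, beside a median of 0.02 over all genes of the table, of which 47.9% were below 0. Both knockout arrays lay below both wild-type arrays for 12 of the 21, as for 17.4% of all genes of the table. The median was between -1.51 and -0.60 without any single CMP array, and -0.44 with cyclic loess. Ciita, the coactivator, was detected on wild-type array 1 alone, at 4.92, and read 3.02 on wild-type array 2 and 2.97 and 3.54 in the knockout. Among the subunits of its docking platform, Rfxap (0.08) and Nfya (0.12) overlapped between the genotypes and Nfyb (-0.32, adjusted p = 0.962) did not. Rfxank read 3.75 and 4.09 in the wild type, where it was not detected, and 4.97 and 4.87 in the knockout (1.00, adjusted p = 0.635).

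**Figure D3:**
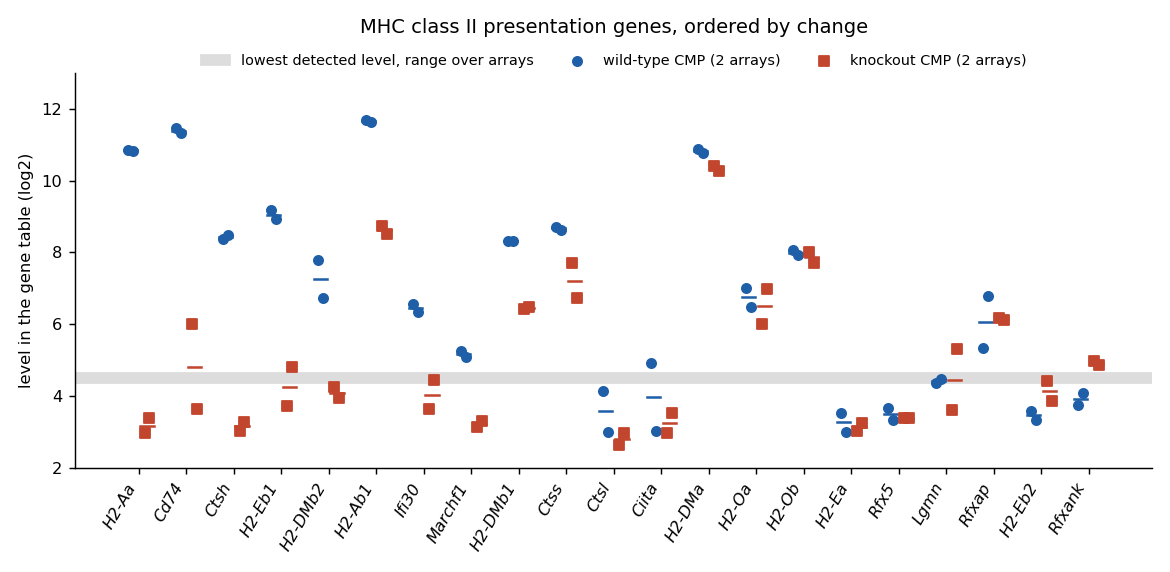
Level in the gene table (log2) of the 21 class II presentation genes on each CMP array, ordered by change, with circles for the wild type, squares for the knockout, short lines for group means and a grey band for the lowest detected level. The genotypes are far apart at the left, from H2-Aa to Ctss, and close together for H2-DMa, H2-Oa and H2-Ob.

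Promoter sequences of class II genes are shown because members of the family differed in their change while sharing the same element. The windows hold the 250 bases before the gene start in RefSeq's table for GRCm38.p6, written 5′ to 3′ along the gene, with the Y box CTGATTGG in capitals; it was searched on both strands. H2-Aa lies on the minus strand (chr17:34287824-34288073), and H2-Eb1 (chr17:34305617-34305866) and H2-Oa (chr17:34092129-34092378) on the plus strand. The box began 51, 62 and 46 bases before the start of H2-Aa, H2-Eb1 and H2-Oa.
H2-Aa: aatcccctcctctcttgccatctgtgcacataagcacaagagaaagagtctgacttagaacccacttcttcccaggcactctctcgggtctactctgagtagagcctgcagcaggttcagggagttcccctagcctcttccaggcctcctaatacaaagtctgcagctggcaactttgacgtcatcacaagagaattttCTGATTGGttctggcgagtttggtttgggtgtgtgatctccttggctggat
H2-Eb1: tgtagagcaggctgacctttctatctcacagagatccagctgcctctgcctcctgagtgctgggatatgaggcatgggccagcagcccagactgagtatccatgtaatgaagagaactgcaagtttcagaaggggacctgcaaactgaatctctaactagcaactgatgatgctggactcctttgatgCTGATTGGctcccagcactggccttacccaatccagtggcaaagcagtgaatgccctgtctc
H2-Oa: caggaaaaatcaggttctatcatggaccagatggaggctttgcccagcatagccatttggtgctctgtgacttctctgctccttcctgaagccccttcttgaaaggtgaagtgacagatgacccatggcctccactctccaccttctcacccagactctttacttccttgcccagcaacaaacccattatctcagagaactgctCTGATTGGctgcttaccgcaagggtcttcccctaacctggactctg

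The 3 promoters above belong to a gene that fell at least 86.9-fold, a gene with a change of -4.79 that did not pass and a gene with a change of -0.25. Of the 15 class II presentation genes with a window in the table, 4 held CTGATTGG (these 3 and H2-Eb2, which was not detected), against 3.83% of all 32851 windows, and 10 held its core GATTGG, which lies within CTGATTGG, against 14.6%. A match is a description and not a binding site. Among the 9 called genes 6 had a window. Aif1 held the paired interferon regulatory factor core GAAANNGAAA, found in 2.98% of all windows, and 0 of the 6 held the composite ETS and IRF core GGAANNGAAA, found in 2.3%. The window of Aif1 (minus strand, chr17:35176053-35176302) is shown with the paired core in capitals, beginning 157 bases before the start within a run rich in A.
Aif1: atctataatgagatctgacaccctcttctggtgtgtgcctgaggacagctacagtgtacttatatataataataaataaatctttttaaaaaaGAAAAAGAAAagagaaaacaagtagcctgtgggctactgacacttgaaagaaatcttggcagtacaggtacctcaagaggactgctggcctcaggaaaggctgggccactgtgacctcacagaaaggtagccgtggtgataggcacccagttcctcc

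Regulators of conventional dendritic cells were the next group with called genes. Id2 encodes an inhibitor of E proteins that dendritic and innate lymphoid cells need, and Batf3 encodes a basic leucine zipper factor needed for the cross-presenting type of dendritic cell. Id2 read 8.84 and 8.74 on the wild-type arrays and 3.9 and 4.2 on the knockout arrays, where a probe of it was detected on array 2 alone. Its change was -4.73 (SE 0.30, adjusted p = 0.00413), and its probes gave -4.13 and -3.03 in the background-corrected scanner values. Batf3 read 6.41 and 6.29 against 3.07 and 3.17 and fell at least 3.85-fold (log2 change -3.23, SE 0.28, adjusted p = 0.0141); its change was -0.77 and did not pass with the uncorrected scanner values, in which low signals sit on the background.

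Genes of mature dendritic cells were tested for 14 of 28 conventional and 12 of 20 plasmacytoid members on the table. Clec9a, a receptor for dead cells on the same dendritic cell type, read 5.31 and 5.17 against 3.38 and 3.04, not detected in the knockout (-2.03, adjusted p = 0.0748). Zbtb46, a factor restricted to the conventional lineage, was detected on wild-type array 2 alone, at 5.59. Xcr1, Irf4 and Siglech were not detected on any CMP array. Itgax, which encodes the CD11c of the sort, had a value of 1.13 in the opposite direction (5.65 and 6.38 against 7.18 and 7.11, adjusted p = 0.7). Of the 14 conventional dendritic cell genes tested 2 fell, beside 0.108% of all genes tested. Among the 14, 3 were tested only because they were detected in 1 genotype, Batf3 among them. The median over all 28 was -0.22. Both knockout arrays lay below both wild-type arrays for 11 and above for 5, beside 17.4% and 19.6% of all genes of the table. Among plasmacytoid dendritic cell genes 0 of 12 tested passed by limma, with 3 lower and 3 higher at an unadjusted p under 0.05. Over all genes tested those shares were 3.52% and 3.34%. Rnase6, a secreted ribonuclease, had a value of -4.50 (9.95 and 10.03 against 4.91 and 6.06, adjusted p = 0.0598) and Pld4, an endosomal nuclease, -2.56. Cox6a2 had 1.52 (0.88 without knockout array 1). Tlr7, an endosomal RNA sensor, had 1.53 but was not detected in the wild type (at least 1.60-fold higher).

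Among monocyte and macrophage genes, 3 of the 27 tested fell and 0 rose, beside 0.108% and 0% of all genes tested. These 3 were tested only because they were detected in the wild type, and 4 of the 27 were detected in 1 genotype alone. Ly86 encodes MD-1, the secreted partner of the receptor RP105. It read 8.62 and 8.38 in the wild type and 3.20 and 3.83 in the knockout, and it fell at least 17.1-fold (log2 change -4.99, SE 0.38, adjusted p = 0.00764). Lgals3, the sugar-binding protein galectin 3, read 7.58 and 7.21 against 3.03 and 3.10 and fell at least 7.94-fold (log2 change -4.33, SE 0.29, adjusted p = 0.00413). Aif1, the calcium-binding protein IBA1 of macrophages, read 7.68 and 8.17 against 4.25 and 4.69 and fell at least 10.2-fold (log2 change -3.45, SE 0.35, adjusted p = 0.0366). None of the 3 was detected on a knockout array.

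None of the other monocyte genes passed the threshold by limma. Over the 38 of them on the table the median was -0.11 with 23 below 0 (60.5%, beside 47.9% of all genes). Both knockout arrays lay below both wild-type arrays for 13 of the 38 and above for 7, beside 17.4% and 19.6% of all genes of the table. Over the whole list 7 genes were lower and 1 higher at an unadjusted p under 0.05, beside 3.52% and 3.34% of all genes tested. Ms4a6c read 7.04 and 7.23 against 4.80 and 4.04 (-2.72, adjusted p = 0.0664). Klf4, a factor needed for monocytes, read 6.37 and 5.65 against 3.28 and 3.37 but was detected by its probe on 1 wild-type array alone and so was not tested. Lyz2, Ccr2, Cx3cr1 and Zeb2 had values between -0.04 and 0.06. Adgre1, an adhesion-type receptor of mature macrophages, had 1.03 but was not detected in the wild type, at 3.76 and 3.75. Plbd1, a phospholipase-like protein of lysosomes, read 7.63 and 7.37 against 3.62 and 4.37 (-3.51, adjusted p = 0.0628). Of 20 lysosomal protease and inhibitor genes tested Ctsh was the 1 that fell, beside 0.108% of all genes tested. Ctsh was already counted among the class II genes, and it was tested only because it was detected in the wild type. Over the 30 lysosomal protease and inhibitor genes on the table the median was -0.26. Both knockout arrays lay below both wild-type arrays for 16 and above for 4, beside 17.4% and 19.6% of all genes of the table.

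**Figure D4:**
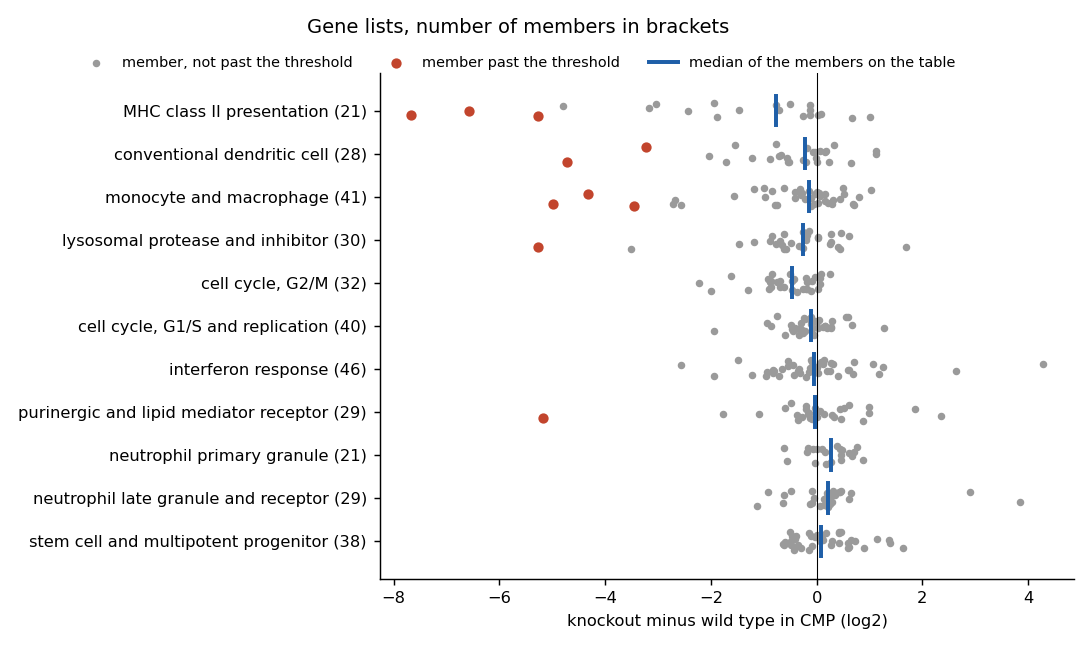
Change in CMP (knockout minus wild type, log2) of every member on the table of 11 gene lists, with grey points for members not past the threshold, red points for members past it and a blue bar for the list median. Class II, dendritic, monocyte, lysosomal and purinergic lists each hold 1 to 3 red points at or near their left end, whereas the G2/M list has 0 red points and a median of -0.46.

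Of 14 purinergic and lipid mediator receptors tested, P2ry6 was the 1 that fell and 0 rose by limma, beside 0.108% and 0% of all genes tested. It was among 4 of the 14 that were tested only because they were detected in 1 genotype. P2ry6, a G protein-coupled receptor for the nucleotide UDP, read 8.25 and 8.70 in the wild type and 3.38 and 3.20 in the knockout, where it was not detected. It fell at least 16.7-fold (log2 change -5.18, SE 0.33, adjusted p = 0.00413). P2ry13, a receptor for ADP, was detected in the knockout alone (4.04 and 3.81 against 6.35 and 6.21) and had a value of 2.35 (SE 0.77, adjusted p = 0.571). P2ry12 had 0.87, P2ry14, a receptor for UDP sugars, 0.98, and P2ry10 -1.77, with adjusted p from 0.241 to 0.721. P2ry12 was not detected in the wild type and P2ry10 was not detected in the knockout, so their folds were at least 1.055 and 1.645. Over all 29 on the table the median was -0.03, and both knockout arrays lay below both wild-type arrays for 4 and above for 10, beside 17.4% and 19.6% of all genes of the table.

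No gene was called higher in the knockout, and the 10 with the smallest p in that direction are given as not passing. Trem3, a receptor of granulocytes and macrophages that signals through DAP12, read 3.81 and 5.40 in the wild type and 8.45 and 8.44 in the knockout (3.84, SE 0.52, adjusted p = 0.0664). It passed under 5 of the 19 other settings, more than any other gene higher in the knockout. Rhbdd3, of the rhomboid family, read 3.55 and 3.54 against 6.20 and 6.68 (2.90, adjusted p = 0.0565) and passed under 4. Diras2, a small GTPase, had a value of 3.65, Klhl30 3.29, Slc35d3 3.18 and Zfp64 3.11. St6gal1, a sialyltransferase, had 2.97, Cmah, an enzyme of sialic acid, 2.82, Nkiras2 2.56 and Ednra, an endothelin receptor, 2.49. From Diras2 to Ednra the adjusted p ran from 0.0598 to 0.114. Rhbdd3, Diras2, Klhl30, Slc35d3 and Ednra were not detected on either wild-type array. Against the lowest level of a detected probe there, they were at least 3.8-, 8.1-, 4.8-, 4.1- and 2.8-fold higher. In all 10 both knockout arrays lay above both wild-type arrays, as they did in 20.1% of the genes tested. The 10 were chosen by p on the same arrays, so this separation adds no support.

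Of the 21 measured genes of neutrophil primary granules, 17 were tested and 0 passed by limma, nor did any reach an unadjusted p under 0.05. Mpo, which encodes myeloperoxidase, read 12.42 and 12.16 in the wild type and 12.40 and 12.50 in the knockout (0.17, SE 0.28). Prtn3, proteinase 3, read 11.04 and 10.94 against 11.36 and 11.40 (0.39, SE 0.52), and neutrophil elastase, listed under its older name ELA2, had 0.44. Gfi1, a repressor needed for neutrophils, read 8.54 and 8.13 against 9.12 and 8.95 (0.70, SE 0.35, adjusted p = 0.792). Cebpe, a factor of granule maturation, Ctsc, Fcnb and Clec12a were detected on 0 wild-type arrays and were not tested. Over the 21 genes on the table the median was 0.27, with 7 below 0, and both knockout arrays lay above both wild-type arrays for 10 and below for 0, beside 19.6% and 17.4% of all genes of the table. The median was 0.03 with median-scaled scanner values and 0.12 without knockout array 2. Of the late granule and receptor genes 8 of 29 were tested and 0 passed by limma. Mmp8, neutrophil collagenase, read 3.25 and 3.13 against 6.43 and 5.74 (2.89, adjusted p = 0.152). It was not detected in the wild type and was at least 2.965-fold higher in the knockout. Camp, Ltf, Ngp and Lcn2 could not be tested for lack of detection.

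Transcription factors of the myeloid branch other than Id2 and Batf3 did not pass. Spi1 read 8.97 and 8.62 in the wild type and 8.44 and 8.85 in the knockout (-0.15, adjusted p = 0.996). Myb, Runx1, Ikzf1 and Stat3 had values between -0.27 and 0.38. Cebpa, detected on 1 array of each genotype, had -0.56 (adjusted p = 0.955). Bcl6, a repressor shared by B cells and dendritic cells, read 7.98 and 7.57 against 5.66 and 6.20 (-1.85, adjusted p = 0.499), Irf5 had -1.56 and Notch1 1.15. Bach2, a repressor better known in B cells, read 8.02 and 8.65 against 5.49 and 4.46 (-3.36, SE 0.56, adjusted p = 0.127). Of 25 partners and reported targets of IRF-8 on the table, Id2 and Batf3 were the 2 that fell among 15 tested. The share over all genes tested was 0.108%. Both genes were already counted among the dendritic cell genes, so they are no further result here. Batf3 was tested only because it was detected in the wild type. The median of the 25 was -0.40.

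Interferon response genes held no call: of 46 measured genes 34 were tested and 0 passed by limma, with 4 lower and 3 higher at an unadjusted p under 0.05. Over all genes tested those shares were 3.52% and 3.34%. The median over all 46 was -0.05. Both knockout arrays lay below both wild-type arrays for 13 and above for 10, beside 17.4% and 19.6% of all genes of the table. Oas2, which makes a second messenger on double-stranded RNA, had the largest positive change of the genes tested: it read 3.17 and 3.81 in the wild type, not detected, and 8.56 and 6.97 in the knockout (4.28, SE 1.38, adjusted p = 0.571). Ddx58, the RNA sensor RIG-I, read 4.41 and 4.27 against 7.21 and 6.74 (2.64, adjusted p = 0.142). Ifi27 (-2.56), the guanylate-binding protein gene Gbp3 (-1.94) and Usp18 (-1.49) had values below 0. Usp18 read 4.31 and 6.11 against 3.85 and 3.59, and its change was -0.59 without wild-type array 2 and -2.39 without wild-type array 1.

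Genes of the G2 and M phases had lower values as a list, with 0 of 25 tested past the threshold by limma. Of the 25, 6 were lower and 0 higher at an unadjusted p under 0.05, beside 3.52% and 3.34% of all genes tested. Plk1, a mitotic kinase, read 9.65 and 10.34 on the wild-type arrays and 8.14 and 7.86 on the knockout arrays, without overlap (SE of the change 0.40, adjusted p = 0.226). Prc1, a protein of the spindle midzone, read 9.51 and 9.69 against 8.34 and 8.25 (-1.30), Ube2c, a ubiquitin-conjugating enzyme of mitotic exit, had -2.23 and Ccnb1, cyclin B1, -1.61. Single arrays moved both: Ube2c had -1.45 without wild-type array 2, and Ccnb1 had -0.65 without knockout array 1 and -2.57 without knockout array 2. Over the 32 on the table the median was -0.46 with 27 below 0, and both knockout arrays lay below both wild-type arrays for 16 and above for 0, beside 17.4% and 19.6% of all genes of the table. The median kept its sign without any single CMP array, from -0.71 to -0.36, and was -0.37 without wild-type array 2. Genes of the G1 and S phases had a median of -0.11 over 40. Of 35 tested 1 was lower and 0 higher at an unadjusted p under 0.05, beside 3.52% and 3.34% of all genes tested. Both knockout arrays lay below both wild-type arrays for 11 of the 40 and above for 4.

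Erythroid genes moved with 1 library, and their part in the G2 and M values was not tested. ERAF, the table's name for a hemoglobin-stabilising protein, read 9.97 on wild-type array 2 and 4.31, 3.74 and 2.78 on the other CMP arrays. Klf1, the erythroid master regulator, read 8.27 on that array and 3.36 to 4.06 on the others. The mean level of the 36 erythroid genes was 5.97 on wild-type array 2 and 4.46 to 4.82 on the other 3 arrays. Mfsd2b (-1.72), Aqp1 (-1.56), Blvrb (-1.22) and the platelet gene Gp5 (-1.35) had values below 0 that turned to between 0.16 and 0.90 without wild-type array 2. Genes of the early and heat shock responses, which can react to handling, had a median of -0.35 over 31, with 23 below 0. Of 23 tested 0 passed the threshold by limma. At an unadjusted p under 0.05, 2 were lower and 0 higher, beside 3.52% and 3.34% of all genes tested. Both knockout arrays lay below both wild-type arrays for 14 of the 31 and above for 6, beside 17.4% and 19.6% of all genes of the table. Whether handling differed between the genotypes was not tested. Hspa1a read 6.75 and 5.96 against 3.59 and 3.60 (-2.76, adjusted p = 0.634) and Jund 7.25 and 6.42 against 5.08 and 3.86 (-2.36).

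No receptor or adhesion gene of the cytokine and chemokine lists passed the threshold. Of 21 cytokine and growth factor receptors tested 0 passed by limma, with 2 lower and 4 higher at an unadjusted p under 0.05. Over all genes tested those shares were 3.52% and 3.34%. Il6ra had a value of -1.59. Il3ra, the receptor chain for interleukin 3, had 1.63, with 5.68 and 7.93 on the knockout arrays, and its change was 0.51 without knockout array 2 and 2.76 without knockout array 1. Of 14 chemokine receptor and adhesion genes tested 0 passed by limma, with 4 lower and 1 higher at an unadjusted p under 0.05 (3.52% and 3.34% over all genes). Over the 26 of that list on the table the median was -0.17, and both knockout arrays lay below both wild-type arrays for 13 and above for 6, beside 17.4% and 19.6% of all genes of the table. Itgb7, an integrin beta chain for homing, read 10.04 and 9.58 in the wild type and 6.77 and 7.87 in the knockout (-2.49, SE 0.42, adjusted p = 0.141), and Itgb2, the beta chain of leukocyte integrins, read 8.08 and 7.55 against 5.86 and 6.08 (-1.84, adjusted p = 0.163). Stem cell and multipotent progenitor genes had a median of 0.08 over 38, with 0 of 22 tested past the threshold by limma. At an unadjusted p under 0.05, 0 were lower and 2 higher, beside 3.52% and 3.34% of all genes tested. Hlf was among the higher genes (1.38, and 0.84 without wild-type array 2). Both knockout arrays lay below both wild-type arrays for 6 of the 38 and above for 13, beside 17.4% and 19.6% of all genes of the table. B lymphoid, T lymphoid and mast cell lists had medians of -0.02, 0.04 and -0.04, and 0 of their 10, 5 and 11 tested members passed by limma.

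The same contrast in ALP shows which changes also appeared in a lymphoid progenitor; the comparisons share no array. The knockout effect differed between CMP and ALP past the threshold for 1 gene, P2ry6 (0.012% of the 8350 tested), while 646 genes (7.74%) had an unadjusted p under 0.05. The P2ry6 levels above, high in wild-type CMP, contrast with 3.25 and 3.79 in wild-type ALP, not detected, and 5.43 and 5.65 in knockout ALP. The effect was -5.18 in CMP and 2.02 in ALP, a difference of -7.20 (SE 0.47, adjusted p = 0.016 by limma). With the replicate number as a block the difference did not pass (adjusted p = 0.0598). With the scanner values it was smaller, from -4.81 to -2.15. P2ry6 was lower in 2 of 2 knockout CMP arrays and higher in 2 of 2 knockout ALP arrays. Id2 read 5.57 and 6.03 in wild-type ALP and 5.95 and 5.92 in knockout ALP; its difference of -4.87 did not pass (adjusted p = 0.0517), nor did that of Lgals3 (-4.39, adjusted p = 0.0582), whose levels in all 4 ALP arrays were 2.75 to 3.05.

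Other called genes had lower values in knockout cells of both kinds. Ly86 read 8.56 and 7.97 in wild-type ALP and 2.85 and 3.37 in knockout ALP, an effect of -5.16 beside -4.99 in CMP (difference 0.17, SE 0.54, adjusted p = 0.977). Ctsh had effects of -5.26 in CMP and -2.73 in ALP, and H2-Aa -7.67 and -3.40. In ALP the effect passed by limma for Ly86 (adjusted p = 0.0149) but not for Ctsh (0.0549) or H2-Aa (0.095). The differences of -2.53 for Ctsh and -4.265 for H2-Aa did not pass (adjusted p = 0.327 and 0.281). Ly86, Ctsh and H2-Aa lay below the lowest detected level on every knockout array of CMP and ALP. Their effects are therefore limited by detection, and the size of the differences between effects is not measured. Wild-type ALP levels of H2-Aa were 6.02 and 7.44 against 10.87 and 10.83 in wild-type CMP. Batf3 and Aif1 had effects of -0.21 and -0.66 in ALP, at levels near or below detection. H2-Ab1 had -3.04 in CMP and 2.03 in ALP, with 8.83 and 8.80 in knockout ALP and 6.14 and 7.42 in wild-type ALP (difference -5.07, adjusted p = 0.12).

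**Figure D5:**
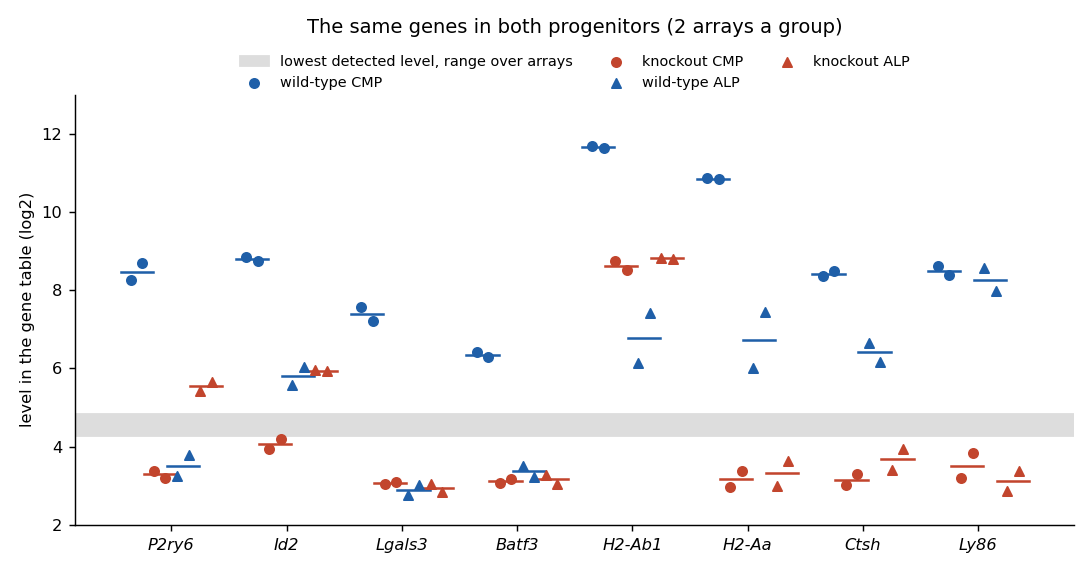
Level in the gene table (log2) on each of the 8 arrays for 8 genes, with circles for CMP, triangles for ALP, blue for the wild type, red for the knockout, short lines for group means and a grey band for the lowest detected level. P2ry6 is high in wild-type CMP and in knockout ALP is at 5.43 and 5.65, Lgals3 and Batf3 are above the band in wild-type CMP alone, and Ly86 is above it in both wild-type groups.

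The spread behind the calls is estimated from all 8 arrays, and with the CMP arrays fitted alone 4 genes were called. The changes themselves rest on the 4 CMP arrays. When 1 of them was left out, 1 gene (Cd74) was called without knockout array 1 and 0 without knockout array 2, wild-type array 1 or wild-type array 2, while 715, 334, 461 and 323 genes had an unadjusted p under 0.05 by limma. A group left with 1 array is assumed in these fits to vary like the other groups. The changes themselves kept their direction in all of these fits, H2-Aa between -7.87 and -7.46, Id2 between -4.86 and -4.59 and Batf3 between -3.29 and -3.17. Of the 19 other settings, Id2, Ctsh, P2ry6 and H2-Aa passed under 15, Lgals3 and Ly86 under 14, Batf3 under 9, Cd74 under 8 and Aif1 under 7; among these settings, leaving out either array of the same ALP group gives the same test in CMP and was counted for each array. Uncorrected scanner values gave smaller changes, -3.72 for H2-Aa with cyclic loess and -1.23 for Lgals3.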

How the data were processed

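RNA of double-sorted CMP and ALP was amplified and hybridised to Illumina MouseRef-8 v2.0 bead arrays, per the labels' protocols. The deposited scanner table holds the linear signal intensity of each probe on each array, with no normalization apparent. It also holds the detection p-value that the authors deposited for each probe; 1 of its columns has no replicate number and was given to wild-type CMP array 1, which had none. The authors' deposited gene table has 1 log2 value per gene and array, normalized between arrays by quantiles, as the values themselves show. The sources used here do not give the background method or the slide.

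The scanner table names no genes, so probes were linked to genes by their values over the 8 arrays, within 0.0003 on the log2 scale. This linked 17434 of 18132 genes (96.2%), and 698 stayed unlinked and untested; of genes tried with shuffled values, 0 of 2000 matched a single probe, 0 of 300 a mean of 2 probes and 1 of 300 a set of 3 or more. RefSeq gave current symbols for 2660 older names, and 1167 names were kept as they stand.

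The log2 values were fitted with limma 3.58.1 in R 4.3.3 as 4 group means over 8 arrays (4 residual and 2.67 prior degrees of freedom), adjusted by the Benjamini-Hochberg method over 8350 genes, and tested on simulated data. Other steps used Python 3.11.15. Lists, 34 in all, the members and the rule for named genes were chosen with earlier results of these data known. By that rule Irf8 came first, then called genes whose genotypes did not overlap, then the 10 genes with the smallest p in a direction with fewer than 5 calls, then up to 4 members of a list with the largest change; other genes were named as list members or after their values were seen. Same-numbered arrays were checked for pairing (correlations of deviations -0.10 to 0.08) and were not treated as pairs. Some list members are not reported here.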

Additional observations from a re-analysis of the deposited data

Results flagged for a closer look

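The knockout effect on P2ry6 differed between CMP and ALP, with a log2 difference of -7.20 between the effects (SE 0.47, adjusted p = 0.016 by limma). Levels were 8.25, 8.70, 3.38 and 3.20 in CMP (wild type, then knockout) and 3.25, 3.79, 5.43 and 5.65 in ALP. With the replicate number as a block the difference did not pass (adjusted p = 0.0598), and 0 genes did. Without wild-type ALP array 2, the array least like the others, 2 genes passed, P2ry6 among them (-7.47, adjusted p = 0.0352). Without any other single array 0 genes passed, with values of P2ry6 from -7.43 to -6.93 and adjusted p from 0.0541 to 0.238. P2ry6 is represented by a single linked probe, which gave -3.67 in CMP in the background-corrected scanner values. The difference between CMP and ALP was -4.81 with those values, -2.27 with median-scaled and -2.15 with cyclic loess scanner values. It passed the threshold by limma with each of them. The knockout CMP and wild-type ALP levels lay below the lowest detected level of their arrays, so the size of the difference is not fixed by these data. No outlier test was possible with 2 arrays a group.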

How the results depend on the processing

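The number of genes called in CMP, 9 in the gene table, was 17 with background-corrected scanner values (neqc), 15 with median-scaled and 14 with cyclic loess scanner values, 14 with an intensity trend and robust fit, 36 with array weights (30 lower, 6 higher), 29 with the stricter detection filter (23 lower, 6 higher) and 4 with the CMP arrays alone. It was 34 at an adjusted p under 0.1, and between 0 and 19 without a single array. All 9 genes were among those called with neqc values, array weights and the stricter filter. With the replicate block 6 genes were called, all among the 9, and with the numbers of the knockout CMP arrays crossed, added after the data were seen, 7. For the difference between CMP and ALP, 1 in the gene table, the count was 2 with array weights, 7 with an intensity trend, 3 without a filter and 0 with the replicate block, where P2ry6 had an adjusted p of 0.0598; among settings added after the data were seen it was 7 with cyclic loess, 11 with median scaling, 3 with the stricter filter and 2 with detection by the level of the gene itself. It was between 0 and 2 without a single array. The cause of these moves was not tested. Without 1 wild-type CMP array the change ranged from -4.02 to 0.90 for Aqp1, -2.59 to 0.16 for Blvrb, -3.44 to 0.75 for Gp5 and -4.09 to 0.64 for Mfsd2b, above 0 where array 2 was left out, and without 1 knockout CMP array from -0.43 (array 2 left out) to 2.76 for Itga2b. Scanner values take the brightest probe of each gene. For Cpox, at -1.51 in the gene table, that probe turned above 0 with neqc (0.50), median-scaled (0.14) and cyclic loess (0.47) values, while its other probe stayed at -1.14 with neqc. The slide is unknown here and was not fitted. Levels under about 4.36 to 4.65 lie below the lowest detected probe on the CMP arrays and have no order.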

Other observations

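Genes outside the lists that had large changes and were well above detection in at least 1 genotype were chosen after their values were seen. Ckb, brain-type creatine kinase, read 9.84 and 9.93 on the wild-type CMP arrays and 3.68 and 6.13 on the knockout CMP arrays (-4.98, adjusted p = 0.127). Its level on knockout array 1 lay below the lowest detected level there. The change of Ckb was -3.76 without that array and -6.20 without knockout array 2, and its effect in ALP was 3.40. Cd33, a sialic acid-binding receptor of myeloid cells, read 6.03 and 5.90 against 7.92 and 7.85 (1.92, adjusted p = 0.137). Ahnak, a very large scaffold protein, read 7.35 and 7.45 against 4.53 and 4.80 (-2.73, adjusted p = 0.0628), and S100a6, a calcium-binding protein, 7.26 and 7.38 against 5.27 and 4.94 (-2.21, adjusted p = 0.492). None of these 4 genes passed the threshold, and in each both knockout arrays lay on 1 side of both wild-type arrays. They were chosen for large changes on the same arrays, so this separation adds no support.

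Detection on the arrays gave a count that needs no fitted change. Of 17434 genes with a linked probe, 131 were detected on both wild-type CMP arrays and neither knockout array, and 179 on both knockout arrays and neither wild-type array. Arrays of the same number gave 144 (arrays 1 alone) and 57 (arrays 2 alone), and the remaining pairs gave 197 and 119, so the counts by genotype lay within the range of the counts by the other pairs.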
